A study of Mus musculus with 4 samples.

Results

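The cytoplasmic ribosomal proteins are the protein building blocks of the 2 subunits of the ribosome. Their genes were taken from the deposited count table by name, as protein-coding genes called Rpl or Rps with a number (with the letter and digit endings a, x, l and y), together with Rplp0, Rplp1, Rplp2 and Rpsa. This rule found 83 of the 56493 genes in the table, 51 of the large subunit and 32 of the small subunit, on 19 chromosomes. Rack1, Fau, Rpl36al, Rps27rt and Rpl37rt are among the genes that also encode ribosomal proteins or copies of them but fall outside the name rule, and such genes are described with the related genes. The measured values were not used to choose the members.

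Epidermis of dorsal skin was compared between mice that lack Stim1 and Stim2 in epithelium through K14-Cre (cKO, 2 libraries) and mice with the same floxed alleles (control, labelled F/F and Flox/Flox, 2 libraries). STIM1 and STIM2 sense calcium in the endoplasmic reticulum and open plasma membrane channels once that store runs low, so the comparison asks how loss of store-operated calcium entry alters epidermal RNA. Cre recombinase was driven by the keratin 14 promoter, which is active in basal keratinocytes, so cells of other lineages in the epidermis keep both genes. The control mice are described by their floxed alleles alone. Age, sex and strain are not given in the sources used here, and neither is whether each library came from 1 animal. The p-values therefore rest on the spread between these libraries, which may be technical. In the single-gene tests that spread is estimated with information shared across all tested genes. A gene's p-value thus does not measure its own spread alone.

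Ribosomal protein mRNAs are among the most abundant mRNAs of growing cells. The proteins are made in matched amounts, join ribosomal RNA in the nucleolus, and are degraded when left unassembled. Many of their mRNAs begin with a cytosine followed by a run of pyrimidines, the terminal oligopyrimidine (TOP) start, through which the mTOR pathway and the RNA-binding protein LARP1 control translation and mRNA storage. In skin, mutations of some ribosomal proteins in keratinocytes are known to activate p53 and darken the skin.

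The start regions of 9 members are shown because the TOP run is the sequence feature that this family is known for, and because the genes named below differ in it. RefSeq promoter sequences (build GRCm38.p6) were found for 63 of the 83 members. Each sequence runs from 30 bases before to 30 bases after the annotated start, read on the strand of the gene. Capitals mark a C followed by at least 4 C or T that begins within 5 bases of the start, and Rpsa and Rpl3l have no such run. The regions are chr4:86857338-86857397 for Rps6 (minus strand), chr11:114668550-114668609 for Rpl38 (plus), chr3:90213619-90213678 for Rps27 (minus), chr7:141447621-141447680 for Rplp2 (plus), chr16:33056452-33056511 for Rpl35a (plus), chr9:120571487-120571546 for Rpl14 (plus), chr3:28805478-28805537 for Rpl22l1 (plus), chr9:120127736-120127795 for Rpsa (plus) and chr17:24727796-24727855 for Rpl3l (plus).
Rps6: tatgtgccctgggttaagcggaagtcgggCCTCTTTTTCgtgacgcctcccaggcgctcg
Rpl38: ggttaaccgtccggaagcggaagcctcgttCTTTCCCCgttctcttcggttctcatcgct
Rps27: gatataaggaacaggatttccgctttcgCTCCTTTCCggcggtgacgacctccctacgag
Rplp2: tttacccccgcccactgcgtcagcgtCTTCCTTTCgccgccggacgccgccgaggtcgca
Rpl35a: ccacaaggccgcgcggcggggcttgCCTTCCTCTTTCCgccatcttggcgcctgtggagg
Rpl14: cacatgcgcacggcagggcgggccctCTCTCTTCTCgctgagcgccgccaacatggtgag
Rpl22l1: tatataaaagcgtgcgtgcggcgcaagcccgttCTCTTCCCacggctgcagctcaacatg
Rpsa: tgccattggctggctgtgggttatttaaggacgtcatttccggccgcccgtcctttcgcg
Rpl3l: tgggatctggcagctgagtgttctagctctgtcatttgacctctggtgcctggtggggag

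A gene counted as having a TOP run where any of its annotated starts had one. A run was present for 29 of the 63 members (46.03%), for 7 of 13 genes of the list of other TOP mRNAs (53.8%) and for 17 of 69 mitochondrial ribosomal proteins (24.6%), against 5718 of 27025 genes in the promoter table (21.2%). The run was searched on the gene's own strand. The motif TATAAA was found on either strand of the 300.0-base promoter for 7 of 63 members (11.1%) and 15.7% of all genes. CCAAT was found for 19 members (30.2%) and 41.1% of all genes. A match is a string of letters at an annotated start. Annotated starts can lie several bases from the start used, which bears on how many runs are found.

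The libraries held 118858 to 322426 counts, with cKO replicate 2 the shallowest. The keratinocyte genes Krt14, Krt5 and Krt10 were detected in each library, with at least 114 counts each. Endothelial markers were near 0, with at most 3 counts over 8 genes in any library and 4 of them (Cdh5, Emcn, Kdr and Plvap) at 0 throughout. The summed basal keratinocyte list (9 genes) ran from 0.50% to 0.92% of the counts across the cKO pair and from 0.54% to 0.67% in the controls, and the suprabasal list (9 genes) from 1.04% to 1.97% and from 0.78% to 1.73%. These sums hide single genes that moved in opposite directions. In the edgeR fit described below, 8 basal genes had a log2 fold change above 0 and 1 below 0 in cKO, with 0 called. Among all tested genes 50.4% were above 0. Of the suprabasal genes 5 were higher and 4 lower, with 1 called higher. The hair list (20 genes, 19 found, 7 of them at 0 throughout) was at 0.052% and 0.046% in cKO and 0.165% and 0.173% in the controls. A single gene, Tchh, gave 99 of 147 and 26 of 55 of these counts in cKO and 257 of 330 and 398 of 557 in the controls. The Langerhans and myeloid list (11 genes) ran from 0.15% to 0.36% and from 0.29% to 0.44%. Of its 7 tested genes 1 was higher and 6 were lower in cKO, with 0 called, so this sum also joins opposite directions. The part of these cell types in the ribosomal protein levels was not tested. Stim1 had 23 and 6 counts across the cKO pair against 24 and 62 in the controls, and Stim2 had 0 and 1 against 3 and 18. Pseudogene rows that carry copies of mitochondrial genes took 14.2% and 24.0% of the counts across the cKO pair and 13.97% and 8.28% in the controls, so that both cKO values were above both control values while the cKO libraries also differed from each other.

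The summed share of the 83 members differed more between libraries of a group than between the groups. They held 7.83% of all counted reads in cKO replicate 1, with a 95% Wilson interval from 7.73% to 7.92%. For cKO replicate 2 the value was 6.44%, between 6.298% and 6.58%. Control replicate 1 stood at 8.47%, between 8.34% and 8.59%, while control replicate 2 stood at 7.15%, between 7.06% and 7.24%. These intervals cover counting error only, and none of the 4 overlaps another. The mean was 7.13% ± 0.982 (SD, n = 2) in cKO and 7.81% ± 0.931 (SD, n = 2) in the controls, a difference of -0.68 percentage points (two-sided exact permutation test, p = 0.667, where 2 against 2 libraries cannot go below 0.333). The order of the libraries was control 1, cKO 1, control 2, cKO 2, so the groups overlap. With the mitochondrial copies left out of the denominator the shares were 9.12% and 8.47% in cKO and 9.84% and 7.79% in the controls, and the difference shrank to -0.026 percentage points (exact permutation test, p = 1). In bulk tissue, fewer cells of a type and less RNA per cell cannot be told apart.

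**Figure D1:**
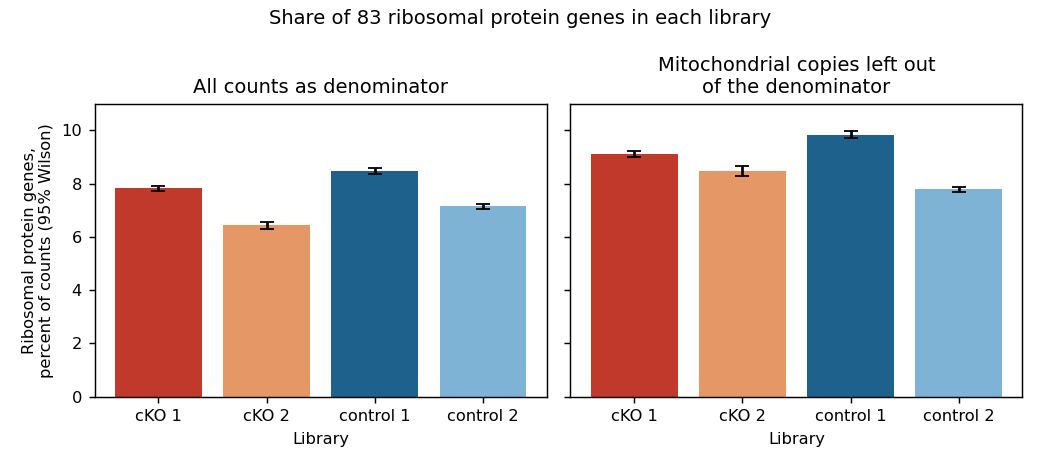
Percent of counts held by the 83 ribosomal protein genes (y axis) in each of the 4 libraries (x axis), over all counts (left) and without the mitochondrial copies (right). Bars are single libraries and error bars are 95% Wilson intervals for counting error. On the left cKO replicate 1 (7.83%) lies between the control libraries (8.47% and 7.15%) and cKO replicate 2 (6.44%) below them.

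The small subunit took a nearly constant part of these counts. Small-subunit genes held 47.02% and 47.5% of the ribosomal protein counts across the cKO pair and 46.8% and 46.6% in the controls. Both cKO values were above both control values, but by less than the counting intervals, which ran from 46.4% to 47.7% in cKO replicate 1 and from 46.04% to 47.5% in control replicate 1. The difference of the means was 0.55 percentage points (two-sided exact permutation test, p = 0.333, the smallest that 2 against 2 libraries can give).

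Single genes were tested with edgeR's quasi-likelihood test in a fit over all 4243 genes that passed the count filter, 80 of them members. Of these 80 members 0 passed an adjusted p under 0.05 in either direction. In the same fit 0.66% of all tested genes were called higher in cKO and 0.189% lower. At an unadjusted p under 0.05 edgeR also gave 0 members, where 4.22% of all tested genes were higher and 4.17% lower. DESeq2 gave 0 members at an adjusted p under 0.05 and 0 at an unadjusted p under 0.05. Limma-voom gave 0 and 1. The median standard error of a member's log2 fold change was 0.42. Changes well above that size could also go uncalled for a single gene. The keratinocyte gene Krt14, fitted at 2.04 (standard error 0.44), just missed the threshold (edgeR adjusted p = 0.0507). The absence of calls among members therefore does not exclude changes larger than 0.42.

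The fitted changes of the members were small and close together. Their log2 fold changes (cKO over control) ran from -0.87 to 0.82, with a standard deviation of 0.32 across members, against 0.98 across all tested genes. No member had an absolute log2 fold change over 1, a size that 17.3% of tested genes exceeded, and 15 of 80 exceeded 0.5, which 44.7% of tested genes did. Tested members had 26 to 4821 counts over the 4 libraries, with a median of 575. The comparison set was 286 other genes whose mean level over the 4 libraries lay between the quartiles of the members' levels. These quartiles were 386 and 1408 CPM, the count scaled to a common library size with TMM factors. The set had a standard deviation of 1.11, with 8 called higher and 1 lower, so by this measure it scattered more widely. Its log2 fold changes ran from -2.36 to 7.91, and such extremes widen a standard deviation. A mean over all libraries also admits genes that reach this level in 1 group only. The median log2 fold change was 0.16 over the 80 members, with 55 above 0, and 0.01 over all tested genes, of which 50.4% were above 0. The 286 genes of like level had a median of 0.13, with 173 above 0. Scaled by library totals alone the member median was -0.10 and that of all genes -0.24, so this scaling turns the sign of the member median while its distance from the median of all genes changed from 0.16 to 0.14. The median was 0.18 for the 48 tested large-subunit genes and 0.10 for the 32 small-subunit genes.

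**Figure D2:**
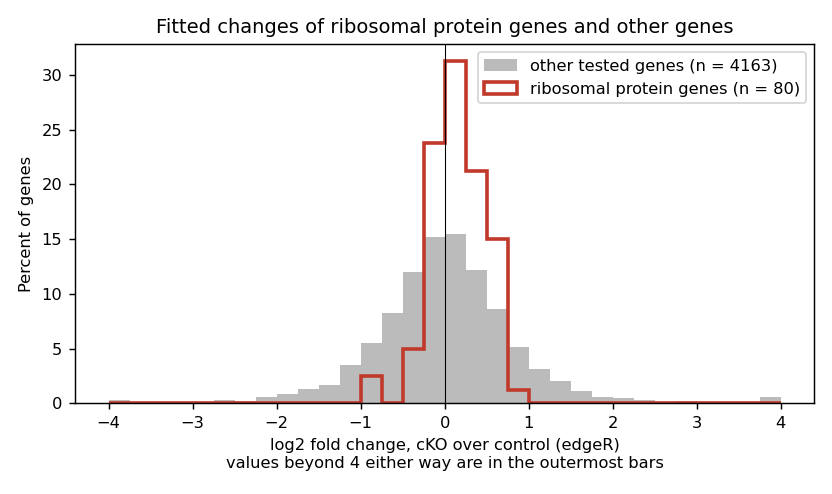
Distribution of log2 fold changes (x axis, cKO over control, edgeR) as percent of genes (y axis) for the 80 tested ribosomal protein genes (red line) and the other tested genes (grey bars). The ribosomal protein genes lie between -0.87 and 0.82, and values beyond 4 in either direction are drawn in the outermost bars.

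The member median depended on single libraries, most of all on the controls. Control replicate 2 had the lowest normalised level (CPM) of the 4 libraries for 45 of the 80 tested members (56.2%), whereas it was the lowest for 21.4% of all tested genes. Its typical member was lower than in control replicate 1 by a median log2 ratio of 0.29 and lower than in cKO replicates 1 and 2 by 0.35 and 0.34. Between cKO replicate 1 and control replicate 1 the median log2 ratio was 0.04. Without control replicate 2 the member median was 0.04, beside 0.05 for all tested genes, and without control replicate 1 it was 0.35, beside 0.03. Without cKO replicate 1 it was 0.08, beside -0.16, and without cKO replicate 2 it was 0.19, beside -0.04. Control replicate 2 also had the lowest share of mitochondrial copies (8.28%) and the highest total, and the part of these in its level was not tested.

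Members scattered between libraries of 1 group about as they did between groups. Over the 80 members, the standard deviation of the log2 ratio of 2 libraries was 0.47 between the cKO libraries and 0.34 between the control libraries, and 0.33 to 0.57 between libraries of different groups. For a member with a typical count, counting alone gives a value of 0.15 to 0.22. Members with few counts, such as Rpl7l1 and Rps15a, have a larger counting error. They enter the standard deviations above, so the 2 measures are not directly comparable. As a description over these 80 members, Pearson's r of log2 CPM was 0.94 between the cKO libraries, 0.97 between the control libraries and 0.91 to 0.97 across groups. The points of each correlation share their 2 libraries, with those libraries' depth and scaling.

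Both cKO values were above both control values in CPM for 24 of the 80 members, where 18.9% of tested genes showed this, and below them for 7 members, where 19.6% did. The 7 lower members were Rpl14, Rpl22l1, Rpl3, Rplp1, Rps15a, Rps29 and Rps4x, named because of this pattern after their values were seen. Relative to the summed ribosomal protein counts of each library, a scale that removes the low level of control replicate 2, 21 members were higher in both cKO libraries and 16 were lower, beside 15.3% and 22.5% of all tested genes. None of these separations passed the test over all genes.

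The stalk proteins form the flexible arm of the large subunit that recruits translation factors, with RPLP0 as its base and RPLP1 and RPLP2 as its tips. Rplp1 (ENSMUSG00000007892, chromosome 9, 61820566 to 61821824, minus strand, GRCm39 per the submitters' processing notes) had 1053 and 337 counts across the cKO pair and 1110 and 1578 in the controls. In CPM these were 4258 and 3787 against 5923 and 5039, so that both cKO libraries were below both control libraries. Within the ribosomal protein counts Rplp1 held 4.77% and 4.41% in cKO and 6.55% and 6.85% in the controls. Its log2 fold change was -0.45 with a standard error of 0.42 (edgeR, adjusted p = 0.902), a difference about as large as its error. Rplp2, the partner of Rplp1 in the stalk dimer, had 396 and 206 counts across the cKO pair and 370 and 480 in the controls. Its CPM values of 1601 and 2315 overlapped the control values of 1974 and 1533, with a log2 fold change of 0.16. Rplp0, with 665 and 181 counts against 474 and 696, had overlapping groups and a log2 fold change of -0.01.

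Rpsa, which serves in the small subunit and was also described as a laminin receptor precursor, had the most counts of all members. The counts were 1486 and 464 in cKO and 1165 and 1706 in the controls, or 6.73% and 6.07% of the ribosomal protein counts across the cKO pair and 6.87% and 7.40% in the controls. In CPM the cKO values of 6009 and 5215 overlapped the control values of 6217 and 5448 (log2 fold change -0.05, edgeR adjusted p = 0.997). Counts of different genes also depend on transcript length. Per kilobase of exon as the table lists it, the mean CPM was highest for Rplp1 (9523 CPM per kilobase), followed by Rps27 (2728), Rpl8 (2472) and Rpl35 (2465), with Rpsa in place 7 at 1805. In libraries made from transcript 3' ends the counts need not grow with length, so this order is approximate.

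**Figure D3:**
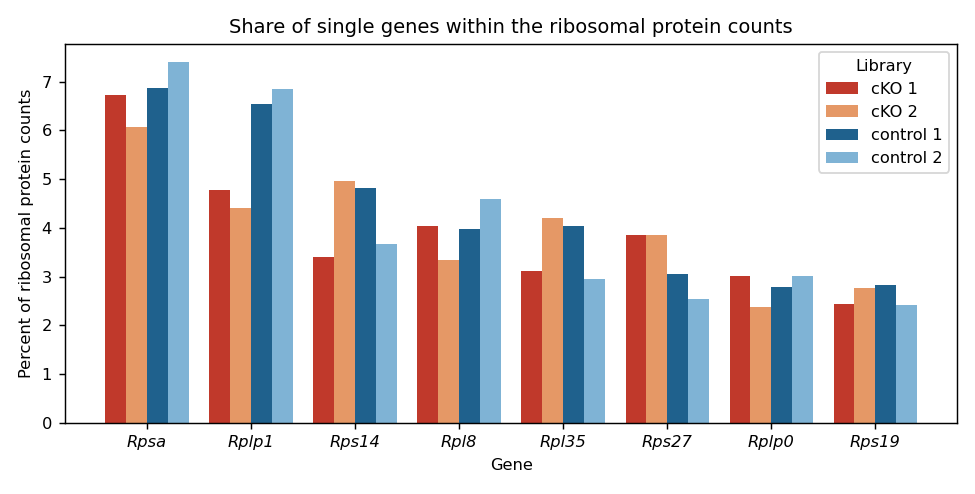
Share of the ribosomal protein counts (y axis, percent) held by 8 abundant genes (x axis) in each of the 4 libraries (bars). Rplp1 is at 4.77% and 4.41% in cKO and 6.55% and 6.85% in the controls, while for Rps14 and Rpl35 the order of the libraries does not follow the groups.

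The other members with the most counts were Rpl8, Rps14 and Rpl35. Rpl8, a protein near the peptidyl transferase centre, had 890 and 255 counts across the cKO pair and 675 and 1056 in control (log2 fold change -0.11). Rps14, whose loss underlies the anaemia of the human 5q- syndrome, had 750 and 380 against 817 and 847 (0.05). Rpl35, which lies at the exit of the peptide tunnel, had 688 and 322 against 686 and 681 (0.13). In CPM, Rps14 and Rpl35 were higher in cKO replicate 2 and control replicate 1 than in the other two libraries, so that the libraries paired across the groups.

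Rps6 is the small-subunit protein that S6 kinase phosphorylates downstream of mTOR. It had 104 and 33 counts across the cKO pair and 71 and 118 in the controls, and its CPM values of 421 and 371 enclosed those of control at 379 and 377 (log2 fold change 0.07, standard error 0.41). RPL5 and RPL11 bind 5S ribosomal RNA and, when not assembled, the p53 regulator MDM2. Rpl5 had 422 and 110 counts against 262 and 413, with overlapping groups and a log2 fold change of 0.12. Rpl11 had 122 and 51 against 90 and 97. Its CPM values were 493 and 573 in cKO against 480 and 310 in the controls, just separated, with a log2 fold change of 0.43 and a standard error of 0.43 (edgeR adjusted p = 0.904).

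Rps19 and Rps20 are the genes mutated in dark skin mouse lines, and Rpl24 and Rpl38 those of the Belly spot and tail and Tail short lines. Rps19 had 540 and 212 counts across the cKO pair and 480 and 559 in control (log2 fold change 0.07). Rps20 had 322 and 70 against 191 and 415, with its lowest CPM in cKO replicate 2 (787) and the other three libraries at 1019 to 1325 (-0.16). Rpl24 had 71 and 28 against 47 and 66, and its CPM values of 287 and 315 lay above 251 and 211, a log2 fold change of 0.38 that is below its standard error of 0.43. Rpl38, with 145 and 60 against 145 and 182, had overlapping groups and a log2 fold change of -0.11. The melanocyte list of 8 genes had 32 to 63 counts in a library, most of them from Dct, with Tyr at 0 throughout.

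Rps27a encodes a ribosomal protein fused to ubiquitin. It had 398 and 155 counts across the cKO pair and 315 and 434 in the controls, and its CPM values of 1609 and 1742 overlapped 1681 and 1386 (log2 fold change 0.13). On the X chromosome lie 4 members, of which Rps4x had 478 and 145 counts against 393 and 632. Its CPM values of 1933 and 1630 were both below 2097 and 2018, a log2 fold change of -0.21 at a standard error of 0.41. Rpl10 and Rpl39 had overlapping groups (0.06 and 0.12), and Rpl36a was separated upward, as given with the highest members.

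Several members have a paralogue that is used in particular tissues or states. RPL22L1 can replace RPL22 in the large subunit, and RPL22 is known to hold back Rpl22l1 expression. Rpl22l1 (ENSMUSG00000039221, on the plus strand of chromosome 3 from 28859585 to 28861573) was counted 32 and 7 times across the cKO pair and 43 and 54 times in the controls, or 129 and 78.7 CPM against 229 and 172. Both cKO libraries were below both control libraries, and the log2 fold change of -0.87 (standard error 0.49) was the lowest among the members (edgeR adjusted p = 0.716). Rpl22 had 99 and 35 counts against 58 and 120, with 400.3 and 393 CPM against 309 and 383. Of the counts of this pair, Rpl22l1 held 24.4% and 16.7% in cKO and 42.6% and 31.03% in the controls. The mean was 20.5% ± 5.49 (SD, n = 2) in cKO and 36.8% ± 8.16 (SD, n = 2) in the controls. This difference of -16.3 percentage points had p = 0.333 in a two-sided exact permutation test, the smallest possible, and an adjusted p of 1 over the 3 pairs compared. The counting intervals of cKO replicate 1 (17.9% to 32.4%) and control replicate 2 (24.6% to 38.3%) overlapped.

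Rps27l, a p53-induced paralogue of Rps27, held 10.2% and 15.8% of its pair's counts across the cKO pair and 13.5% and 11.99% in control (exact permutation test, p = 1). Rps27 and Rps27l had nearly equal log2 fold changes, 0.54 and 0.54, with standard errors of 0.43 and 0.46. Rps27 had 852 and 294 counts against 517 and 587, with both cKO libraries above both control libraries, and Rps27l had 97 and 55 against 81 and 80, with overlapping groups. Rpl7l1, a nucleolar paralogue of Rpl7, had 4 and 6 counts against 11 and 5, too few to size a change (standard error 1.15), and Rpl7 had 87 and 29 against 75 and 95 (log2 fold change -0.04). The testis paralogues Rpl10l and Rpl39l had 0 counts in all 4 libraries, and a count of 0 allows up to 3 counts, which correspond to 9.58 to 33.7 CPM. Rpl3l, the striated muscle paralogue of Rpl3, was seen only in control replicate 1, with 3 counts. The summed 15 genes of the skeletal muscle list stood at 0.159% and 0.114% of the counts in control and 0.00850% and 0.0252% in cKO, and their part in the 3 counts of Rpl3l was not tested. Rps4l, a transcribed pseudogene related to Rps4x and no member, had 3 and 5 counts against 7 and 7. Rpl3 had 129 and 41 counts against 101 and 166 (log2 fold change -0.12). These 3 paralogues are the members that did not pass the count filter.

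Among the highest log2 fold changes of the members were those of Rpl34, Rpl36a, Rpl35a and Rpl37. Rpl34 had 204 and 78 counts across the cKO pair and 116 and 147 in the controls, or 825 and 877 CPM against 619 and 469. Both cKO libraries lay above both control libraries, and its log2 fold change was 0.65 with a standard error of 0.42 (edgeR adjusted p = 0.773). Rpl36a was at 999 and 674 CPM against 635 and 463 (0.62), and Rpl35a at 797 and 865 CPM against 619 and 466 (0.62). For Rpl37 the groups overlapped, with 323 and 551 CPM against 336 and 229.9 (0.61). Control replicate 2 was the lowest library in these 4 genes.

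The lowest after Rpl22l1 were Rps15a, Rpl14, Rplp1 and Rps15. Rps15a had 13 and 3 counts across the cKO pair and 15 and 26 in the controls, with a log2 fold change of -0.84 and a standard error of 0.66. Rpl14 had 328 and 96 counts against 353 and 464, or 1326 and 1079 CPM against 1884 and 1482, and its log2 fold change was -0.48 with a standard error of 0.42 (edgeR adjusted p = 0.888). Rps15 had 251 and 51 counts against 227 and 299, with its low value in cKO replicate 2 alone (573 CPM against 955 to 1211 in the other three). The log2 fold change of Rps15a was -1.30 without cKO replicate 1, which leaves the library with 3 counts. The other 47 tested members, with 153 to 2251 counts each, had log2 fold changes between -0.29 and 0.58, 35 of them above 0.

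**Figure D4:**
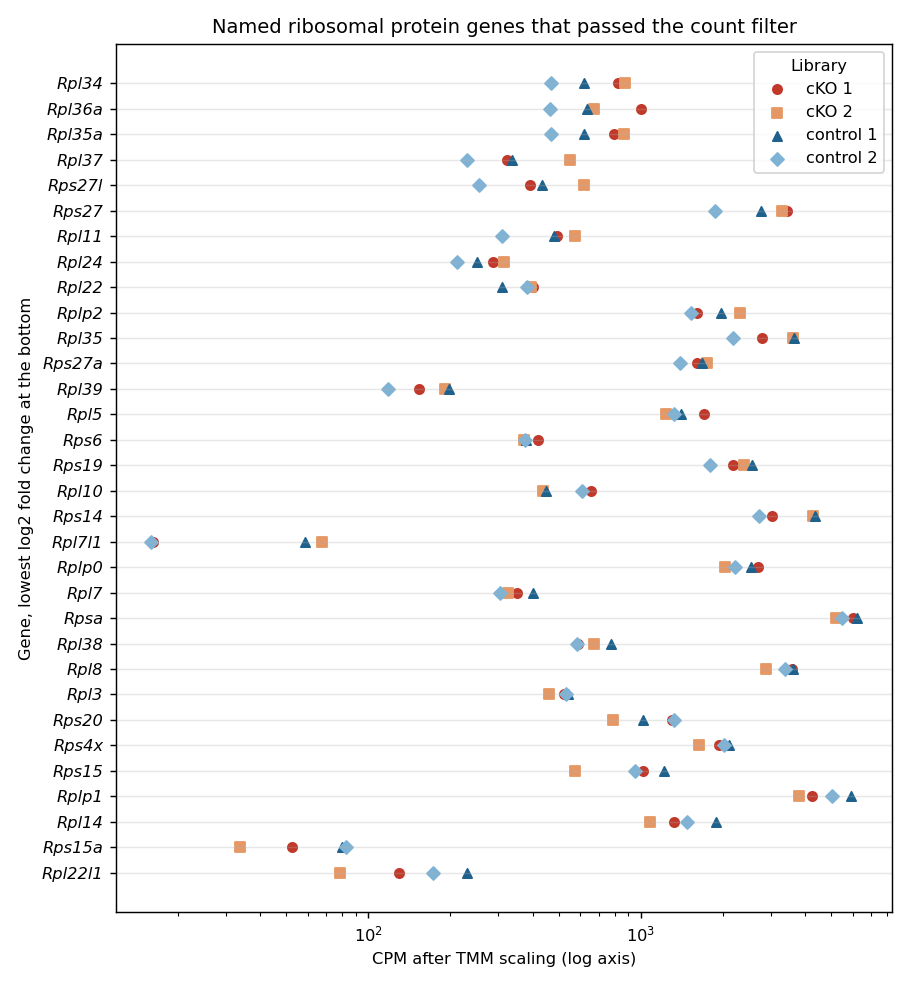
Normalised level (x axis, CPM on a log axis) of the named ribosomal protein genes that passed the count filter (y axis, ordered by log2 fold change) in each of the 4 libraries (symbols). For Rpl34 the cKO libraries are at 825 and 877 and control at 619 and 469, and for Rpl22l1 at 129 and 78.7 against 229 and 172, while for most genes between them the libraries of the groups interleave.

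Changes were also set out by the presence of a TOP run. The 29 tested members with a run, such as Rps6, Rpl38, Rps27 and Rpl14 among the sequences shown, showed 0.16 as their median log2 fold change, with 20 above 0. The 31 tested members with no run within 5 bases of an annotated start, such as Rpsa, had a median of 0.21 with 24 above 0. Carriers of a run thus stood among both the lowest members (Rpl22l1, Rps15a and Rpl14) and the highest (Rpl34 and Rpl35a). Pyrimidine runs further from the annotated start, such as that near the end of the Rpsa sequence shown, were not counted. The split therefore follows the annotated starts and need not separate TOP mRNAs from others.

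A large part of the reads of this family was counted on pseudogenes. Ribosomal protein genes have many processed pseudogenes, copies of their mRNAs inserted back into the genome. Among the pseudogenes of the table, 669 were at least 95% identical over at least 150 bases to a transcript of a member, and 77 of the 83 members had at least 1 such copy. These copies had 23473 counts, beside 69736 on the members. The copies took 26.2% and 25.3% of the counts of members and copies together in cKO and 24.6% and 24.6% in the controls. For 10 of the 83 members the copies had more counts than the gene itself. The largest share was that of Rps6, with 71.9% and 72.3% in cKO and 68.6% and 69.03% in the controls, followed by Rpl15, Rps12 and Rpl27a. How the counting divided reads with several equally good positions is not given in the sources used here, so the levels of such members are uncertain.

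Adding the copies to their members left each member without a call. Summed with the copies, the family took 10.6% and 8.62% of the counts across the cKO pair and 11.2% and 9.47% in the controls. The member median became 0.15, the median absolute shift of a member's log2 fold change was 0.040, and 74 of 80 kept their sign. The largest shift, 0.45, was that of Rps15a. Rpl35a went from 0.62 to 0.42 and Rps6 from 0.07 to 0.22. Again 0 members passed an adjusted p under 0.05 (edgeR), and 0 an unadjusted p under 0.05.

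**Figure D5:**
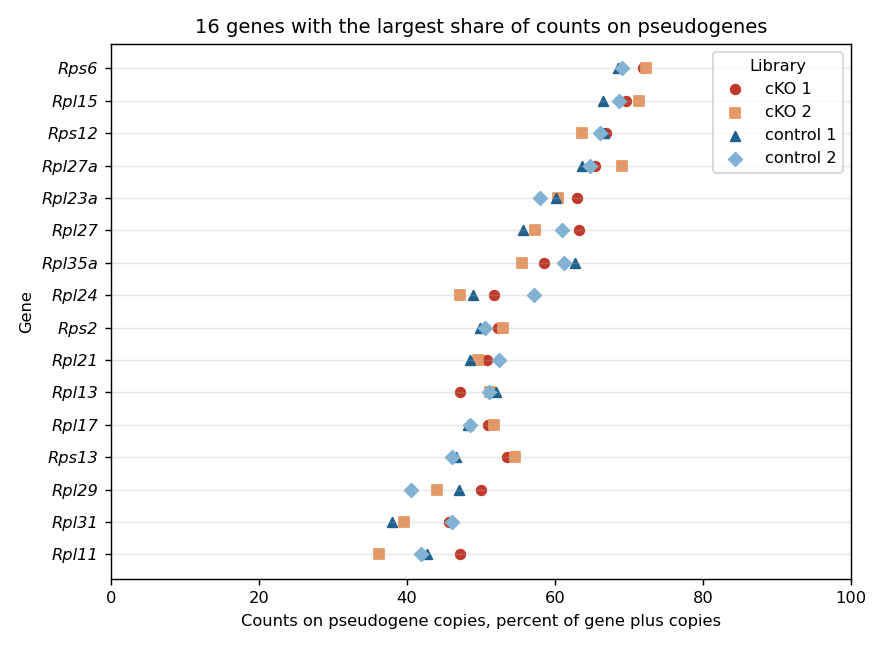
Counts on pseudogene copies as percent of gene plus copies (x axis) for the 16 genes with the largest share among those with at least 200 counts (y axis) in each of the 4 libraries (symbols). Rps6 is highest, between 68.6% and 72.3%. For some genes the libraries lie further apart, such as Rpl11 with 47.2% and 36.25% in cKO and 42.7% and 41.9% in the controls. For Rps13 both cKO values (53.5% and 54.5%) lie above both control values (46.6% and 46.1%). For Rpl35a both cKO values (58.5% and 55.5%) lie below both control values (62.7% and 61.3%).

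Among other genes of the translation apparatus, edgeR, DESeq2 and limma-voom each called 0 at an adjusted p under 0.05 in any list that follows. Over all tested genes the median is 0.01 and 50.4% are above 0. At an unadjusted p under 0.05 edgeR gave 1 initiation factor (Eif2b4), 1 gene of mTOR and MYC control (Mxd1), 2 mitochondrial ribosomal proteins and 0 in the other lists. In these lists DESeq2 gave Eif2b4 alone. Limma-voom gave the edgeR genes, with 1 more of ribosome assembly and 2 of the nascent chain list. Of these 2, 1 is also on the list of other TOP mRNAs. Among all tested genes edgeR gave 4.22% higher and 4.17% lower at this threshold. Of the 6 ribosomal protein genes outside the name rule, all 6 were tested, with a median log2 fold change of 0.37 and 6 above 0. Fau, whose product carries ribosomal protein S30, had 517 and 224 counts across the cKO pair and 382 and 578 in control (0.25), and Rack1, a scaffold of the small subunit, had 258 and 55 against 133 and 257 (0.13). Among initiation factors 0 of 30 tested genes passed (median 0.17, 17 above 0). Eif1, which helps to select the start codon, had 218 and 103 counts against 243 and 377 (-0.30). Among elongation and release factors 0 of 9 passed (median 0.01, 5 above 0). Eef1a1, which delivers transfer RNA, had 580 and 147 against 377 and 557 (0.08). Eef1b2, an exchange factor for the same step, had 366 and 88 against 237 and 376 (0.01). The list of other TOP mRNAs, which shares genes with these lists, had 0 of 20 called, a median of 0.20 and 17 above 0.

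Genes for building and controlling ribosomes were not called either. Of the ribosome assembly list 30 of 64 genes were tested and 0 passed (median -0.09, 14 above 0). The nucleolar proteins Ncl and Npm1 had 157 and 30 counts against 162 and 208 (-0.62), and 198 and 34 against 117 and 127 (0.23). Of 78 mitochondrial ribosomal protein genes 43 were tested and 0 passed (median 0.04, 24 above 0). The 78 genes held 0.45% and 0.54% of the counts across the cKO pair and 0.62% and 0.44% in the controls. Of the nascent chain and signal recognition list 0 of 12 tested passed (median 0.25, 9 above 0). Naca had 135 and 55 counts against 98 and 112 (0.40). From the list of mTOR and MYC control 6 of 18 were tested and 0 passed (median 0.54, with 5 of 6 above 0). Eif4ebp1, the translation repressor that mTOR phosphorylates, had 29 and 31 counts against 25 and 25 (1.06, edgeR adjusted p = 0.706). In CPM these were 117 and 348 against 133 and 79.8, so the groups overlapped and the high value was that of cKO replicate 2 alone. Mxd1, an antagonist of MYC, had 91 and 27 against 18 and 67 (1.10, edgeR adjusted p = 0.553), and Larp4, which binds poly(A) tails, had 23 and 5 against 30 and 48 (-0.99, edgeR adjusted p = 0.671). In the p53 target list 0 of 9 tested passed (median -0.37, 3 above 0). Cdkn1a, its best-known member, had 144 and 63 counts against 81 and 229 (0.14). Perp, a desmosome protein of epithelia, had 444 and 105 against 299 and 856 (-0.54).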

How the data were processed

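RNA was extracted from epidermis separated from dermis with thiocyanate, and libraries were prepared from transcript 3' ends with a kit converted for MGI sequencing, per the labels' protocols. The authors deposited raw counts per gene, without normalisation, in 1 table, which is used as it stands. Per the submitters' processing notes, the tools were Trim Galore 0.6.7, Trimmomatic 0.39, cutadapt 3.7, STAR 2.7.10a and featureCounts 2.0.1 with GRCm39. Strand use, the treatment of molecular identifiers and of multiply aligned reads are not given in the sources used here. Table coordinates are GRCm39 and promoter coordinates GRCm38.p6, and they were not combined. All 4 sample columns were used, leaving 0 unused.

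Genes were filtered with filterByExpr (minimum count 10, minimum total count 15), scaled with TMM and tested with glmQLFit and glmQLFTest in edgeR 4.0.16 (R 4.3.3) with genotype as the only term. Adjustment was by Benjamini-Hochberg over all 4243 tested genes, at a threshold of 0.05. Standard errors are the absolute log2 fold change over the square root of F. The fit was also run on simulated data, with planted log2 fold changes larger than any fitted for a member. Changes of the members' size were not checked in this way. Copies were sought with blastn 2.17.0 among GENCODE M21 pseudogene transcripts (13574 of 13810 pseudogene rows could be searched). Alternatives were DESeq2 1.42.0, limma 3.58.1 voom, other scalings and filters, the replicate number as a block, pseudogene rows added by name (320 rows) and each library left out. Adding copies by sequence and a crossed block were chosen after seeing the data. Always named were members fixed by role or paralogy, with the 5 highest and lowest log2 fold changes (mean of at least 10 CPM) and the 5 with most counts. In other lists the genes given with levels and changes are among the 3 with the highest mean CPM, except the keratinocyte marker Krt10. Genes named only as list members, as at 0 throughout, or for an unadjusted p (Eif2b4) fall outside this rule and were chosen after their values were seen. The members, lists and this rule were chosen with earlier results of these data known. Some genes that this rule names are not reported here.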

Additional observations from a re-analysis of the deposited data

How the results depend on the processing

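Under each alternative run, 0 members were called higher and 0 lower in cKO, with a lowest adjusted p among named members of 0.197. Of 528 values of the 33 tested named members under alternatives, 473 kept their direction and 55, in 17 members, changed sign, none past the threshold. The cause of these changes was not tested. With library totals as the only scaling, log2 fold changes became -0.18 for Rpl10, -0.064 for Rpl22, -0.14 for Rpl35, -0.13 for Rpl39, -0.12 for Rpl5, -0.25 for Rpl7l1, -0.12 for Rplp2, -0.23 for Rps14, -0.19 for Rps19, -0.14 for Rps27a and -0.18 for Rps6. Without a count filter they were -0.015 for Rpl10, -0.091 for Rpl7l1, -0.060 for Rps14, -0.024 for Rps19 and -0.0090 for Rps6, and, over genes whose mean reached 10 CPM, -0.044 for Rpl7l1 and -0.012 for Rps14. Adding pseudogenes by name gave 0.0070 for Rpl7, 0.025 for Rplp0 and 0.033 for Rpsa, and by sequence 0.028 for Rpl38, 0.0022 for Rpl7, -0.0016 for Rpl7l1, 0.069 for Rplp0 and 0.035 for Rpsa. Rpl7l1 was at -0.027 with upper quartile scaling, -0.017 with library sizes without mitochondrial copies and -0.15 with limma-voom, and Rplp0 at 0.00031 with DESeq2. Leaving out a library gave -0.32 to 0.32 for Rpl10, -0.19 to 0.56 for Rpl35, -0.29 to 0.11 for Rpl38, -0.20 to 0.52 for Rpl39, -0.18 to 0.34 for Rpl5, -0.22 to 0.16 for Rpl7, -1.11 to 1.21 for Rpl7l1, -0.33 to 0.053 for Rpl8, -0.27 to 0.19 for Rplp0, -0.12 to 0.36 for Rplp2, -0.25 to 0.43 for Rps14, -0.15 to 0.36 for Rps19, -0.62 to 0.16 for Rps20, -0.071 to 0.16 for Rps6 and -0.21 to 0.050 for Rpsa.

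The difference in summed share became 0.14 percentage points without the 20 most abundant other genes in the denominator, and -1.37 to 0.018 with a library left out, the last without cKO replicate 2. The small-subunit difference was 1.04 percentage points without Rpsa. The count of all genes called higher and lower (28 and 8) became 43 and 17 at a threshold of 0.10, 49 and 26 without a count filter, 12 and 3 with limma-voom, and 34 to 59 and 8 to 34 with a library left out. The lower count was 15 with library totals and 15 over genes whose mean reached 10 CPM. With the replicate number as a block the counts were 16 and 1, and with crossed numbers 90 and 57. Same-numbered libraries did not deviate together (correlation -0.16), so the numbers were not used as pairs, and the block changed no call of a member. Depth limits these results most for Rps15a, Rpl7l1 and the 3 paralogues under the filter, and in cKO replicate 2.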
